A study of Homo sapiens with 36 samples.

Results

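HCT116 is a colorectal cancer cell line. All lines studied here carry OsTIR1, a plant protein switched on by doxycycline, which in the presence of auxin marks proteins with a mini-AID tag for destruction. In the UHRF1-AID/DNMT1-AID line both UHRF1 and DNMT1 carry that tag, and in WT neither does. The question addressed here is how the transcriptional effect of losing both proteins changed between day 2 and day 8 of auxin. It was measured as an interaction, the log2 difference between UHRF1-AID/DNMT1-AID and WT on day 8 minus the same difference on day 2. This comparison rests on 12 of the 36 RNA-seq libraries, 3 in each of the 4 groups (the UHRF1-AID/DNMT1-AID line and the WT line at days 2 and 8). All 4 groups, WT included, received 1 day of 2 µg/mL doxycycline with 20 µM auxinole (an OsTIR1 inhibitor) and then 2 µg/mL doxycycline with 500 µM auxin, with the medium renewed at 2-day intervals, so that neither auxin nor doxycycline separates the lines. There is no library from before auxin among those compared. Day 6 libraries of both lines and the lines with a single tag, UHRF1-AID or DNMT1-AID, are used only for comparison. The methods describe the AID lines as clones and the libraries as biological triplicates, whereas the labels name neither clone nor culture, so the p-values measure the spread between these libraries.

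UHRF1 recognises hemimethylated DNA behind the replication fork and recruits and activates DNMT1, the enzyme that restores methylation on the new strand. Without them methylation is diluted as cells divide. Silenced promoters and retroelements can then become active, and double-stranded RNA or DNA of such origin is read by innate sensors, which switch on interferons and, through them, the interferon-stimulated genes. Senescence is a lasting exit from the cell cycle that usually combines loss of replication and mitosis transcripts with a secretory programme of cytokines, proteases and growth factors, much of it under NF-kappa B.

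The 12 libraries held 21074536 to 30559549 counted reads. Libraries of 1 group correlated with r of at least 0.98. The share of reads on the mitochondrial genome was 7.72 to 10.8% in UHRF1-AID/DNMT1-AID on day 8 and at most 4.54% in the other 3 groups, and the share on ribosomal protein genes was 10.2 to 14.1% on day 2 and 4.94 to 5.84% on day 8 in both lines. Epithelial markers were high in every library. The 8 colorectal epithelial markers summed to 5800 to 9520 CPM (reads scaled to a common library size by TMM). Most of this sum came from the keratins KRT8, KRT18 and KRT19, which are not particular to the colon. Of the intestinal members, CDX1 was at 0 in 6 of the 12 libraries, VIL1 at 7.89 to 17.2 CPM and CDX2 at 17.9 to 153 CPM. The 6 leukocyte markers, mostly CD68, summed to at most 37.7 CPM and the 4 endothelial markers to at most 3.78 CPM. The 7 fibroblast markers, mostly COL1A1, summed to 34.2 to 45.9 CPM in UHRF1-AID/DNMT1-AID on day 8 and at most 23.5 CPM elsewhere, and their part in the results was not tested.

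The tag acts on the protein, so the transcripts of the targeted genes do not check the depletion. DNMT1 mRNA stood at 60.5, 48 and 47.8 CPM in WT and 19.2, 14.4 and 9.12 CPM in UHRF1-AID/DNMT1-AID on day 2, and at 191, 210 and 195 and 53.4, 46.2 and 32.6 CPM on day 8. It was lower in the double degron line on both days without overlap, and its interaction was -0.31 ± 0.31 (SE, adjusted p = 0.473). UHRF1 mRNA did not separate the lines on day 2 (60, 54.2 and 41.7 CPM in WT, 35.1, 56.7 and 57.1 CPM in the double degron line). On day 8 it had risen to 148, 151 and 147 CPM in WT and stood at 67.2, 39.3 and 75.6 CPM in the double degron line, an interaction of -1.23 ± 0.36 (SE, adjusted p = 0.00851). UHRF1 (ENSG00000276043.5) lies at chr19:4903080-4962154 on the plus strand and DNMT1 (ENSG00000130816.17) at chr19:10133342-10231286 on the minus strand of GRCh38, and DNMT1 overlaps S1PR2.

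Between day 2 and day 8 the double degron line moved further from WT in both directions. Of 15415 protein-coding genes tested, 814 (5.28%) gained more than 2-fold relative to WT and 602 (3.91%) lost more than 2-fold, at an adjusted p under 0.05 (edgeR's quasi-likelihood test, Benjamini-Hochberg). At any fold, 2481 genes (16.1%) rose and 3477 (22.6%) fell. The counts of each gene list below are to be read against these shares. Against WT, 2514 genes (16.3%) were higher and 1773 (11.5%) lower on day 2, and 5499 (35.7%) were higher and 5060 (32.8%) lower on day 8. Over time, 4642 genes (30.1%) rose and 4577 (29.7%) fell in WT itself, while 6114 (39.7%) rose and 5549 (36%) fell in the double degron line. The interaction measures what the double degron line did beyond the change of WT. As RNA came from whole cultures, a change in the share of cells and a change per cell cannot be told apart. Over days 2, 6 and 8 the median gained gene differed from WT by a log2 of 0.19, 0.75 and 1.71, and the median lost gene by -0.12, -0.41 and -1.4. The day 6 difference, from libraries that the interaction did not use, lay between those of days 2 and 8 for 86.6% of gained and 78.6% of lost genes, and for 48.9% of all genes tested. As the interaction uses days 2 and 8, the medians of those days describe the choice of genes. The same choice set a wide interval between those days, in which a day 6 value falls more readily. The day 6 shares of gained and lost genes can therefore not be compared with that of all genes.

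**Figure D1:**
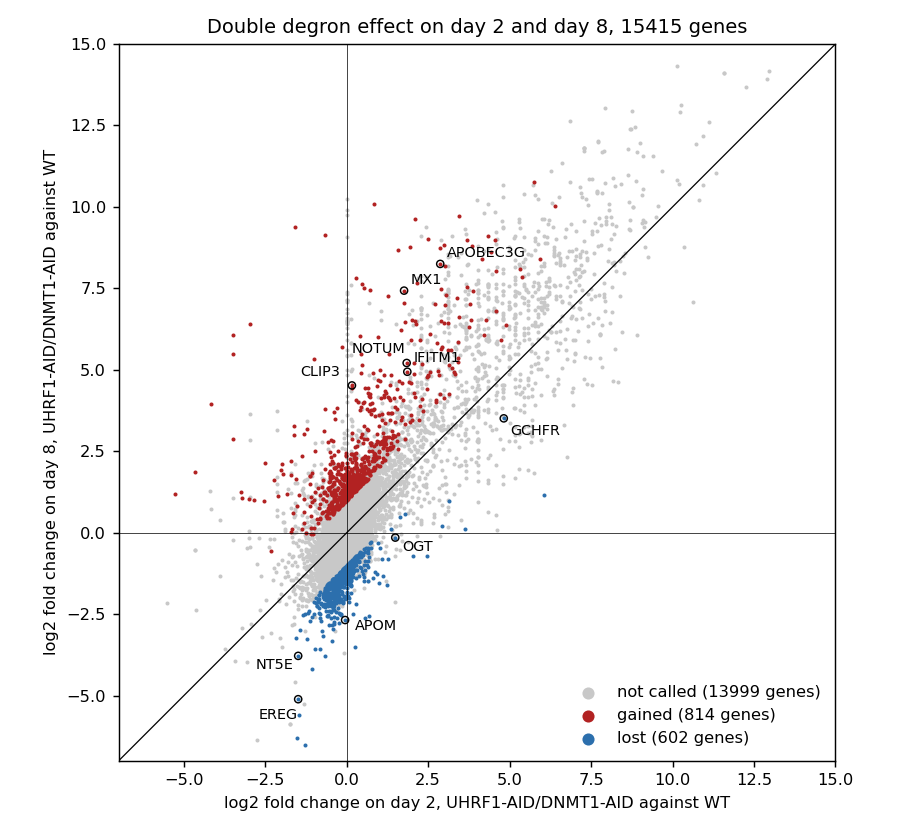
Log2 difference between UHRF1-AID/DNMT1-AID and WT on day 2 (x axis) and day 8 (y axis) for each gene tested, with the 814 gained and 602 lost genes in colour and named genes labelled. Points above the diagonal gained and points below it lost relative to WT, and 3 genes lie beyond the axis limits of -7 and 15.

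Most of these genes were not called against WT on day 2, and neither were most genes tested. Of all genes tested, 16.3% were higher and 11.5% lower than WT on day 2, and 35.7% and 32.8% on day 8. Of the 814 gained genes, 551 (67.7%) were not called against WT on day 2 and were higher on day 8, and 217 (26.7%) were higher on both days. Of the 602 lost genes, 403 (66.9%) were not called on day 2 and lower on day 8, and 152 (25.2%) were lower on both days. Smaller groups crossed WT: 19 gained genes went from lower to higher, and 28 lost genes from higher to lower. A further 15 gained genes went from lower to not called and 12 were called on neither day. Among lost genes, 12 went from higher to not called, 5 were called on neither day, and 2 stayed higher on both.

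By line, 406 gained genes rose in the double degron line with no call in WT, 314 rose in both, 49 rose in the double degron line while falling in WT, 37 fell in WT with no call in the double degron line, and 8 were called in neither. Of the lost genes, 251 fell in both lines, 228 fell in the double degron line with no call in WT, 70 fell there while rising in WT, 46 rose in WT with no call in the double degron line, 4 rose in both and 3 were called in neither.

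Genes that were not called on day 2 and higher on day 8 included NFKB2 (ENSG00000077150.21, chr10:102394110-102402524, plus strand), which encodes the p100 precursor of the non-canonical NF-kappa B subunit p52. It stood at 47.3, 46.2 and 48.2 CPM in WT and 47.4, 37.1 and 37.3 CPM in the double degron line on day 2. By day 8 NFKB2 stood at 99.2, 101 and 99.2 CPM in WT and 287, 314 and 263 CPM in the double degron line. Both lines rose and only on day 8 did their libraries separate, with an interaction of 1.75 ± 0.15 (SE, adjusted p = 1.59e-10). PLTP (ENSG00000100979.15, chr20:45898621-45912155, minus strand), a phospholipid transfer protein of lipoproteins, stood at 22.6 to 25.9 CPM in WT and 24.4 to 27.4 CPM in the double degron line on day 2, and at 43.3 to 46.1 and 107 to 142 CPM on day 8. Its interaction was 1.51 ± 0.13 (SE, adjusted p = 2.05e-10). PLTP overlaps CTSA on the other strand, and the counting is not stated to use strand.

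Genes already higher on day 2 whose gap widened included PLD3 (ENSG00000105223.21, chr19:40348456-40389472, plus strand), a lysosomal exonuclease that degrades nucleic acids. PLD3 stood at 151, 137 and 147 CPM in WT and 201, 181 and 188 CPM in the double degron line on day 2, and at 203, 212 and 202 and 585, 639 and 550 CPM on day 8, without overlap on either day (interaction 1.13 ± 0.1 (SE, adjusted p = 3.2e-10)). Genes that went from lower to higher included IRF1 (ENSG00000125347.15, chr5:132440440-132508719, minus strand), a transcription factor of interferon and antigen presentation genes. IRF1 stood at 14.6, 14 and 12.5 CPM in the double degron line against 17.7, 16.7 and 17.9 CPM in WT on day 2, and at 55.7, 59.6 and 48 against 33, 31.4 and 31.5 CPM on day 8. The order of the lines was thus inverted without overlap, with an interaction of 1.12 ± 0.14 (SE, adjusted p = 1.3e-07).

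The genes not called on day 2 and lower on day 8 included HSPA8 (ENSG00000109971.14, chr11:123057489-123063230, minus strand), the constitutive cytosolic HSP70 chaperone. On day 2 it was at 1800, 2050 and 1870 CPM in WT and 1840, 2000 and 1930 CPM in the double degron line, with overlapping libraries. By day 8 HSPA8 stood at 1450, 1430 and 1330 CPM in WT and 388, 396 and 522 CPM in the double degron line, an interaction of -1.71 ± 0.13 (SE, adjusted p = 3.2e-11). TFRC (ENSG00000072274.14, chr3:196012511-196082153, minus strand), the transferrin receptor that brings iron into dividing cells, was lower on both days: 139, 150 and 164 CPM against 195, 193 and 196 CPM on day 2 and 41.5, 28.8 and 46.9 CPM against 172, 176 and 170 CPM on day 8. Its interaction was -1.78 ± 0.15 (SE, adjusted p = 6.81e-11). OGT (ENSG00000147162.15, chrX:71533087-71575892, plus strand), the enzyme that attaches O-linked N-acetylglucosamine to nuclear and cytosolic proteins, took the opposite course to most. It stood at 169, 167 and 188 CPM in the double degron line against 64.8, 59.8 and 61.8 CPM in WT on day 2, and had come down to 49.5, 47.3 and 51.8 CPM against 58.7, 51.9 and 54.2 CPM on day 8 (interaction -1.64 ± 0.31 (SE, adjusted p = 0.000164)).

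**Figure D2:**
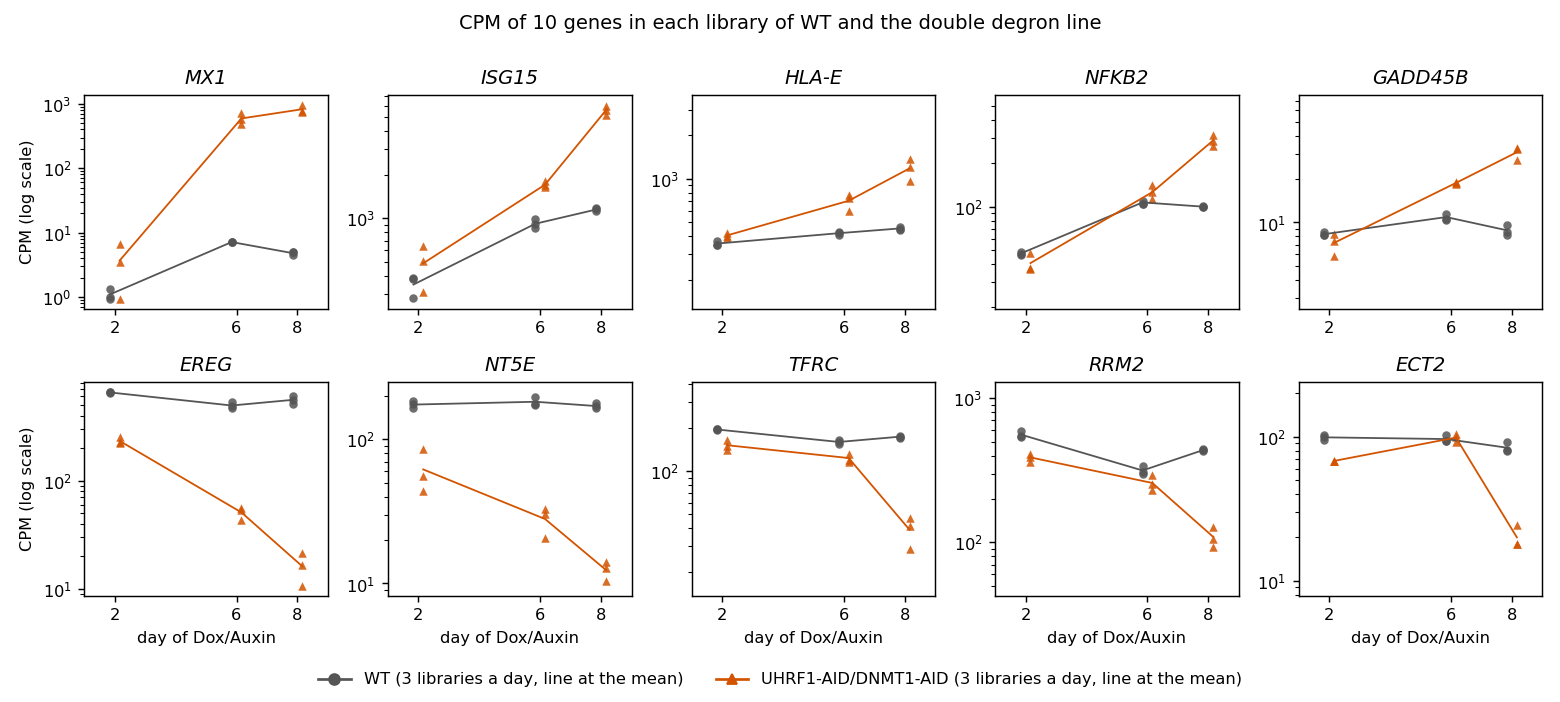
Level (CPM, log scale) of 10 genes in each library of WT and UHRF1-AID/DNMT1-AID on days 2, 6 and 8, with 1 point per library and 3 libraries per group. MX1, ISG15, HLA-E, NFKB2 and GADD45B ended above WT and EREG, NT5E, TFRC, RRM2 and ECT2 below it on day 8, with no overlap of the day 8 libraries.

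Among the 10 largest falls of genes with a mean of at least 5 CPM, beside EREG described with its family, were those of APOM (ENSG00000204444.11, chr6:31652416-31658210, plus strand), the apolipoprotein that carries sphingosine 1-phosphate, TMEM200A (ENSG00000164484.12, chr6:130366017-130443067, plus strand), a membrane protein, and PRKDC (ENSG00000253729.9, chr8:47773111-47960178, minus strand), the catalytic subunit of the DNA-dependent protein kinase of end joining. APOM went from 21.6 to 26.6 CPM to 3.02 to 4.03 CPM in the double degron line while WT went from 24.4 to 25.7 to 20.8 to 23.8 CPM, an interaction of -2.62 ± 0.3 (SE, adjusted p = 7.52e-08). PRKDC fell from 137, 137 and 134 CPM to 43.2, 31.3 and 53.9 CPM in the double degron line and rose from 198, 180 and 183 to 299, 338 and 269 CPM in WT, without overlap on either day. Its interaction was -2.36 ± 0.24 (SE, adjusted p = 1.29e-08). NT5E (ENSG00000135318.12, chr6:85449584-85495791, plus strand), the ecto-enzyme CD73 that makes adenosine outside the cell, stood at 86, 55.6 and 43.7 CPM on day 2 and 12.9, 10.4 and 14 CPM on day 8 in the double degron line, against 164 to 183 and 164 to 178 CPM in WT (interaction -2.28 ± 0.38 (SE, adjusted p = 3.36e-05)). TMEM200A and the adhesion receptors ADGRF1 and ADGRF3 showed interactions of -2.61 (adjusted p = 0.00525), -2.36 (adjusted p = 0.000248) and -2.31 (adjusted p = 7.76e-05) on the log2 scale, all with the day 8 double degron libraries below those of WT.

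The genes gained and lost also differed in what the contrast did not use. Gained transcripts had a median GC content of 57.4% and a median exon length of 3663 bases, lost transcripts 43.5% and 5328 bases, and all genes tested 49.5% and 4997 bases. Chromosome 19, which is gene-rich and GC-rich, held 14% of gained and 2.16% of lost genes, against 7.62% of all genes tested. With a correction of the counts for GC content and length, 661 genes gained, 533 of them among the 814, and 418 lost, 330 of them among the 602. At any fold, 2374 genes rose and 2678 fell under that correction. Of the gained genes, 65 had a group with at most 3 reads over its 3 libraries, so that their fold is not measured.

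The interferon-stimulated genes rose after day 2. Their median log2 difference against WT was -0.07, 0.88 and 1.41 at days 2, 6 and 8. Of the 56 members, all of which were tested, 37 (66.1%) rose beyond WT between the days and 3 (5.36%) fell, beside 16.1% and 22.6% of all genes tested. The median interaction was 1.29, or 1.21 over the members with more than 3 reads in every group, against -0.01 over all genes tested. These genes also rose in WT between day 2 and day 8, by a median log2 of 1.9, against 3.37 in the double degron line. Only 11 members were higher than WT on day 2, and 8 were lower. On day 8, 44 were higher and 4 lower.

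Many interferon-stimulated genes carry the interferon-stimulated response element (ISRE), to which interferon regulatory factors bind. Searched on both strands as GAAA, any 2 bases and GAAA, it occurred in 29 of the 46 members with an entry in the RefSeq promoter table (250 bases before to 50 after the gene start, GRCh38.p14), which is 63%, against 1255 of 35116 promoters of that table (3.57%). It was present in 20 of 30 members that rose, in 9 of 13 that were not called and in 0 of the 3 that fell. The stretches shown here are the 150 bases before the start of the 4 members of smallest p that rose, had the element in those bases and met no annotated exon there, chosen after their values were seen. They are those of IFITM3 (chr11:320861-321010, minus strand), ISG15 (chr1:1013347-1013496, plus strand), IFIH1 (chr2:162318685-162318834, minus strand) and HERC5 (chr4:88456969-88457118, plus strand), written 5′ to 3′ along the gene's strand with the matches in capitals. Matches on the other strand read TTTC, any 2 bases and TTTC, and neighbouring matches may overlap.
IFITM3: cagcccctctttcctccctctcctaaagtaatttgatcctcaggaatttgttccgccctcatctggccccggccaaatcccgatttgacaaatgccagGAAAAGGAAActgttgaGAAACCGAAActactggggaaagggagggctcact
ISG15: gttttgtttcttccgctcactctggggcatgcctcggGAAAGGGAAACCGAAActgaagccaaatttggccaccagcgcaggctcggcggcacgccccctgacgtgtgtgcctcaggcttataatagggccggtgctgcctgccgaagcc
IFIH1: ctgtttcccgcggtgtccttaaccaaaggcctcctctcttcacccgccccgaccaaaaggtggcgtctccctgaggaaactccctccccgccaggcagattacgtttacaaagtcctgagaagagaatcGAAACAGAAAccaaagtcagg
HERC5: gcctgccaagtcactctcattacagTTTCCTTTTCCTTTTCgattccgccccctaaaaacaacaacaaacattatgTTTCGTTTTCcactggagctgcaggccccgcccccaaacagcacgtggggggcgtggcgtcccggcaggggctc

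MX1 (ENSG00000157601.15, chr21:41420020-41470071, plus strand), a GTPase that blocks viral ribonucleoproteins, had the largest interaction of the list. On day 2 it stood at 0.989, 0.943 and 1.35 CPM in WT and 6.6, 3.44 and 0.93 CPM in the double degron line, and on day 8 at 4.53, 4.9 and 4.93 CPM and 775, 969 and 737 CPM. The day 2 libraries overlapped and the day 8 libraries did not, and the interaction was 5.67 ± 0.87 (SE, adjusted p = 1.23e-05). MX1 overlaps TMPRSS2 on the other strand. ISG15 (ENSG00000187608.10, chr1:1001138-1014540, plus strand), a ubiquitin-like modifier whose promoter is printed above, stood at 281, 383 and 377 CPM in WT and 647, 507 and 306 CPM in the double degron line on day 2. On day 8 it stood at 1170, 1120 and 1160 and 5190, 6010 and 5610 CPM, again with overlap on day 2 only, and the interaction was 1.8 ± 0.32 (SE, adjusted p = 6.47e-05).

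IFITM1 (ENSG00000185885.17, chr11:310041-315272, plus strand), a membrane protein that blocks virus entry, was already higher on day 2, at 246, 182 and 177 CPM against 49.2, 58.9 and 59.1 CPM in WT. Its day 8 level was 4940, 5260 and 4440 CPM against 149, 162 and 165 CPM. The lines were apart on both days and the gap widened by 3.09 ± 0.28 (SE, adjusted p = 3.96e-09) on the log2 scale. IFITM1 shares sequence with IFITM2 and IFITM3 and overlaps a read-through locus, so its reads may be divided among them. ISG20 (ENSG00000172183.16, chr15:88635670-88656483, plus strand), an exonuclease that degrades viral RNA, was at 11.3 to 17.7 CPM on day 2 and 12.2 to 15.8 CPM on day 8 in WT. In the double degron line it went from 20.2, 16 and 13.3 CPM to 73.7, 87 and 71.8 CPM, an interaction of 2.21 ± 0.24 (SE, adjusted p = 2.17e-08). IRF7 (ENSG00000185507.21, chr11:612553-615983, minus strand), the regulator that amplifies interferon production, went from 63.3, 55.5 and 41.9 CPM to 631, 697 and 557 CPM and in WT from 23.5, 30.8 and 29.5 to 124, 123 and 134 CPM. IRF7 libraries did not overlap between the lines on either day, and the interaction was 1.37 ± 0.2 (SE, adjusted p = 3.71e-06), or 0.82 after the GC and length correction. LGALS3BP (ENSG00000108679.13, chr17:78971238-78979947, minus strand), a secreted glycoprotein, went from 529 to 686 CPM to 5270 to 7560 CPM in the double degron line and from 555 to 594 to 1940 to 2110 CPM in WT (interaction 1.64 ± 0.21 (SE, adjusted p = 1.92e-07)).

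Not every member took part. IFI27 (ENSG00000165949.13, chr14:94104836-94116695, plus strand), a mitochondrial protein often used as an interferon marker, stood at 4.53, 5.66 and 6.91 CPM in WT and 107, 56.6 and 46.1 CPM in the double degron line on day 2, and at 184, 161 and 177 and 2360, 2950 and 2760 CPM on day 8. It was thus far above WT from day 2 and rose in step with it, with an interaction of 0.33 ± 0.46 (SE, adjusted p = 0.619). The 3 members that fell were TRIM25 (interaction -0.61 ± 0.13 (SE, adjusted p = 0.000312)), HERC6 (-0.65 ± 0.16 (SE, adjusted p = 0.00156)) and ADAR (-0.37 ± 0.14 (SE, adjusted p = 0.0363)), of which TRIM25 is a ubiquitin ligase that activates the RNA sensor RIG-I and ADAR edits double-stranded RNA. ADAR was named after its values were seen. OAS2, which makes the activator of RNase L, reached 108, 142 and 77.1 CPM in the double degron line on day 8 from 1.43, 0.308 and 0.186 CPM on day 2. In WT OAS2 went from 0.052, 0.277 and 0.162 to 1.01, 1.17 and 1.32 CPM, and its interaction of 4.53 ± 1.7 (SE, adjusted p = 0.0363) lost its call under 7 of 26 other settings, with an adjusted p of 0.225 without WT day 2 replicate 2, 0.097 without WT day 2 replicate 3, 0.0551 without UHRF1-AID/DNMT1-AID day 2 replicate 2 and 0.054 without UHRF1-AID/DNMT1-AID day 2 replicate 3.

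Of 27 interferon ligands, receptors and nucleic acid sensors tested (of 32 listed), 10 (37%) rose and 3 (11.1%) fell, with a median interaction of 0.33, or 0.23 without members that had at most 3 reads in a group. TREX1 (ENSG00000213689.14, chr3:48465811-48467645, plus strand), the exonuclease that clears cytosolic DNA, overlapped between the lines on day 2 (9.99, 8.82 and 9.83 CPM in WT, 8.09, 7.57 and 9.55 CPM in the double degron line). By day 8 TREX1 stood at 13.8, 16.2 and 12.8 CPM in WT and 35.1, 40.8 and 26.9 CPM in the double degron line, without overlap (interaction 1.45 ± 0.2 (SE, adjusted p = 7.08e-07)). TREX1 overlaps ATRIP on the same strand. DHX58, the RIG-I-like receptor LGP2, went from 4.09 to 7 to 58.9 to 77.7 CPM and in WT from 1.22 to 1.46 to 5.45 to 6.85 CPM (interaction 1.45 ± 0.3 (SE, adjusted p = 0.000261)). IRF3, the factor activated by the sensors, had an interaction of 0.45 ± 0.1 (SE, adjusted p = 0.000401), which was not called after the GC and length correction (0.2, adjusted p = 0.114). MAVS, the mitochondrial adaptor of the RNA sensors, rose less than in WT and so fell relative to it (-0.66 ± 0.18 (SE, adjusted p = 0.00343)).

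The ligands themselves were near the detection limit on day 2. IFNL1 (ENSG00000182393.3, chr19:39296407-39298673, plus strand), a type III interferon, had 0 to 0.186 CPM in every day 2 library. The day 8 libraries had 0.595, 0.495 and 0.236 CPM in WT and 8.92, 15.1 and 7.41 CPM in the double degron line, without overlap. As both day 2 groups held at most 3 reads over 3 libraries, no interaction can be given a size for IFNL1. The neighbouring paralog IFNL2 showed the same order, with 0.366, 0.315 and 0.27 CPM in WT and 2.09, 3.61 and 2.86 CPM in the double degron line on day 8, and reads may be divided between them. CGAS (ENSG00000164430.17, chr6:73413515-73452297, minus strand), which senses cytosolic DNA and makes cyclic GMP-AMP, had no read in WT on day 2 and 0.229, 0.369 and 0.31 CPM in the double degron line. On day 8 it had 0.183, 0 and 0.0337 CPM in WT and 4.84, 3.19 and 5.51 CPM in the double degron line. CGAS was higher in the double degron line on both days without overlap, and with an empty WT group on day 2 the change of that gap has no measured size. STING1 (ENSG00000184584.14, chr5:139475533-139482935, minus strand), the adaptor downstream of CGAS, stood at 23, 20.9 and 24 CPM in WT and 19.8, 26.4 and 23.4 CPM in the double degron line on day 2, and at 25.1, 29.7 and 27 and 22.3, 20.4 and 17.8 CPM on day 8. Its interaction was -0.47 ± 0.29 (SE, adjusted p = 0.214).

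Antigen presentation genes had the highest share of members rising among the lists. Of 27 members 22 (81.5%) rose and 0 fell (the edgeR test, adjusted p), with a median interaction of 1.03 and medians against WT of 0.07, 0.65 and 1.03 at days 2, 6 and 8. HLA-E (ENSG00000204592.9, chr6:30489509-30494194, plus strand), a non-classical class I molecule read by natural killer cells, stood at 347, 371 and 346 CPM in WT and 422, 400 and 391 CPM in the double degron line on day 2. By day 8 HLA-E stood at 451, 443 and 461 CPM in WT and 1200, 1380 and 965 CPM in the double degron line. The lines were apart on both days, and the interaction was 1.2 ± 0.15 (SE, adjusted p = 2.1e-07), with the reservation that class I genes share sequence. PSMB10 (ENSG00000205220.12, chr16:67934506-67936864, minus strand), a catalytic subunit of the immunoproteasome that cuts peptides for class I, overlapped between the lines on day 2 (29.6, 33.6 and 30.5 CPM in WT, 32.5, 33.2 and 32.3 CPM in the double degron line). On day 8 it was at 34.6, 29.6 and 31.8 and 75.2, 93.9 and 70.7 CPM, without overlap, an interaction of 1.26 ± 0.16 (SE, adjusted p = 1.55e-07).

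**Figure D3:**
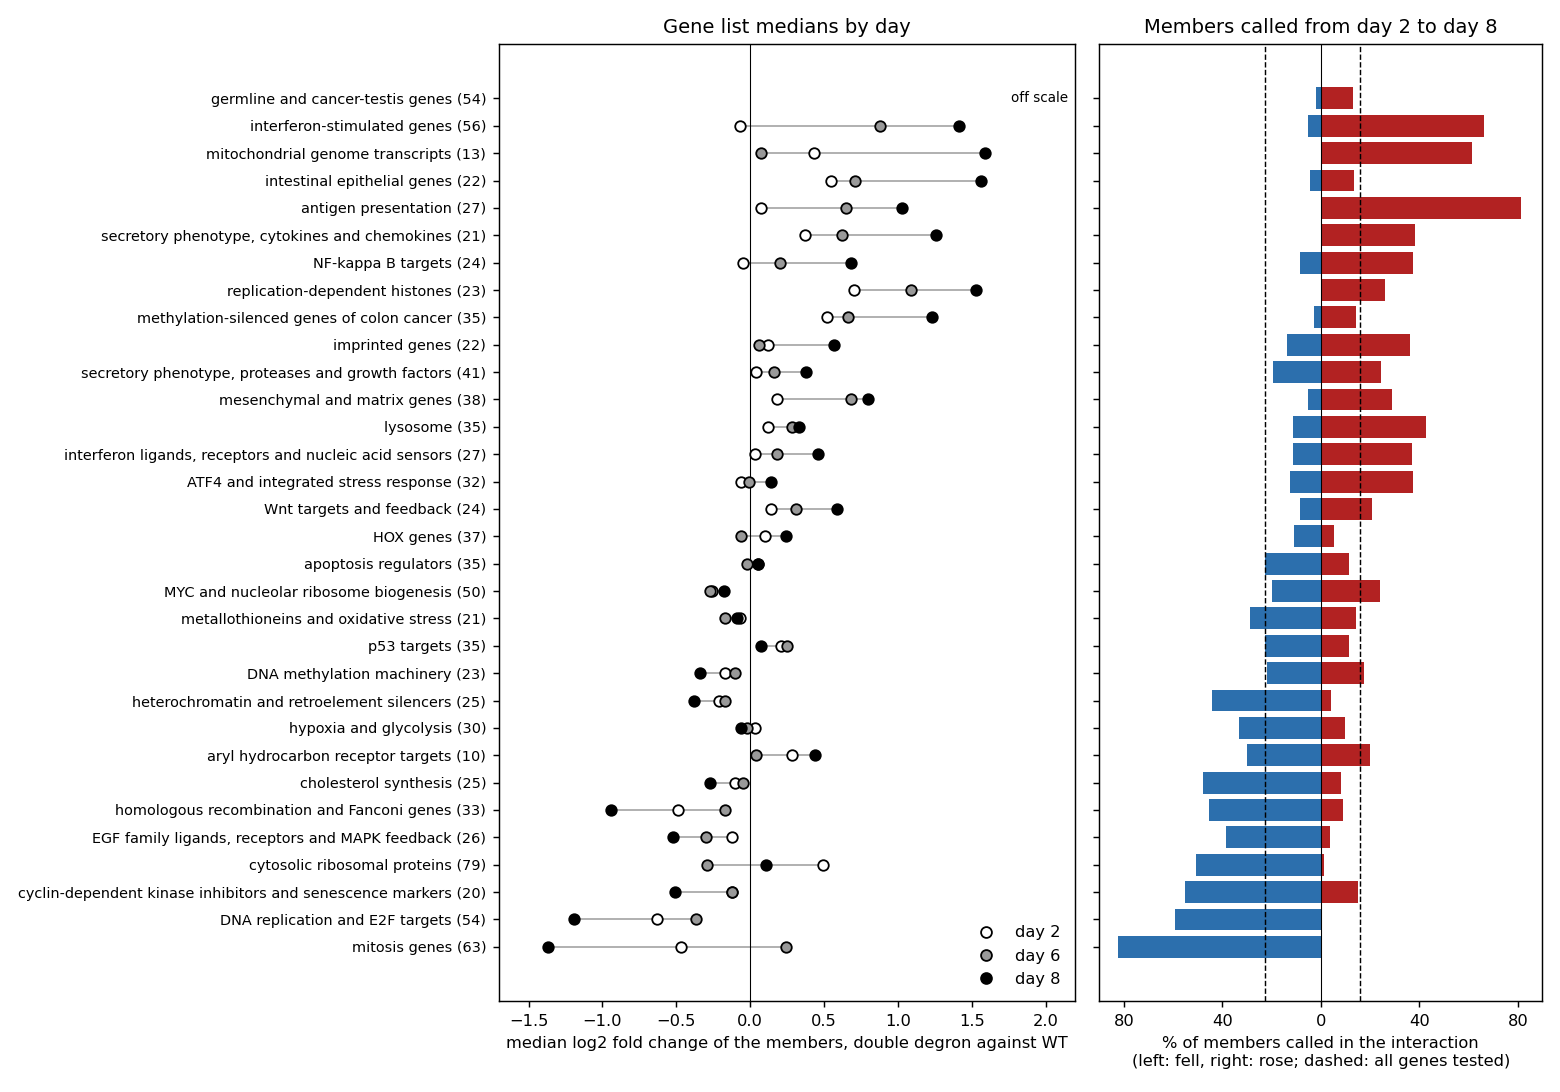
Left, the median log2 difference between UHRF1-AID/DNMT1-AID and WT on days 2, 6 and 8 for each gene list, with the germline list beyond the axis. Right, the percentage of tested members of each list that rose or fell relative to WT between day 2 and day 8, with dashed lines at the 16.1% and 22.6% of all genes tested. Antigen presentation (81.5% rose) and mitosis (82.5% fell) lie farthest from the dashed lines.

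Of 24 NF-kappa B targets tested, 9 (37.5%) rose and 2 (8.33%) fell, or 6 and 2 after the GC and length correction, with a median interaction of 0.72 (0.66 without members that had at most 3 reads in a group). Beside NFKB2 they included TNIP1 (ENSG00000145901.16, chr5:151029945-151093577, minus strand), a feedback inhibitor that binds A20, which was at 24.8 to 27.7 and 27 to 28.6 CPM in the 2 lines on day 2 and at 47.2 to 50.9 and 78.4 to 85.5 CPM on day 8 (interaction 0.66 ± 0.12 (SE, adjusted p = 4.69e-05)). RELB, the partner of p52, showed an interaction of 0.86 ± 0.16 (SE, adjusted p = 6.97e-05), which was not called after the GC and length correction (0.38, adjusted p = 0.0648). BIRC2 (ENSG00000110330.10, chr11:102347211-102378670, plus strand), the ubiquitin ligase cIAP1 that restrains the non-canonical pathway, fell in both lines, from 65.3, 71.8 and 65.7 to 52.4, 45 and 47.4 CPM in WT and from 73.8, 66.7 and 66.1 to 27.9, 25.4 and 31.8 CPM in the double degron line. The day 2 libraries of BIRC2 overlapped and the day 8 libraries did not (interaction -0.8 ± 0.13 (SE, adjusted p = 7.12e-06), or -0.43 after the GC and length correction). NFKB1, the p105 precursor, had an interaction of -0.51 ± 0.18 (SE, adjusted p = 0.0196) and lost its call under 5 of 26 other settings. They included leaving out UHRF1-AID/DNMT1-AID day 2 replicate 3 (NFKB1 adjusted p = 0.0751), UHRF1-AID/DNMT1-AID day 8 replicate 2 (0.0863) and WT day 2 replicate 2 (0.0528).

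Of 21 cytokines and chemokines of the secretory phenotype tested (of 33 listed), 8 (38.1%) rose and 0 fell by the edgeR test, or 5 and 0 without WT day 2 replicate 3, with a median interaction of 0.9, or 0.66 without members that had at most 3 reads in a group. IL32 (ENSG00000008517.19, chr16:3065297-3082192, plus strand), a proinflammatory cytokine, was at 0.364, 0.166 and 0.108 CPM in WT and 1.43, 1.6 and 1.86 CPM in the double degron line on day 2. Its day 8 level was 0.229, 0.18 and 0.0337 CPM in WT and 23.7, 31.6 and 20.1 CPM in the double degron line. It stayed near 0 in WT and was higher in every double degron library on both days, with an interaction of 4.58 ± 0.9 (SE, adjusted p = 0.000126). CCL5, a chemokine for T cells, was at 0 to 0.574 CPM in the double degron line on day 2 and at 8.92, 12.5 and 9.5 CPM on day 8, against 0.869, 0.63 and 0.742 CPM in WT. Its interaction was 3.37 ± 1.04 (SE, adjusted p = 0.00985), with an adjusted p of 0.0791 without WT day 2 replicate 1 and a value of 5.24 without UHRF1-AID/DNMT1-AID day 2 replicate 1. CXCL16 was at 128 to 132 CPM on day 8 in the double degron line and 112 to 117 CPM in WT, having been lower on day 2 (interaction 0.56 ± 0.11 (SE, adjusted p = 0.000148)). MIF, an abundant cytokine, had an interaction of 0.54 ± 0.14 (SE, adjusted p = 0.002), which was 0 after the GC and length correction.

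Of 41 proteases, inhibitors, receptors and growth factors of the secretory phenotype tested (of 50 listed), 10 (24.4%) rose and 8 (19.5%) fell, shares near the 16.1% and 22.6% of all genes tested. After the GC and length correction 6 rose and 6 fell, in a fit of the 4 groups alone 16 and 7, with the replicate block within each line 16 and 9, and without UHRF1-AID/DNMT1-AID day 2 replicate 2 9 and 5. TIMP1 (ENSG00000102265.12, chrX:47582408-47586789, plus strand), an inhibitor of matrix metalloproteinases, was not called against WT on day 2 (300 to 318 CPM in WT, 331 to 368 CPM in the double degron line). Day 8 brought it to 325, 378 and 351 CPM in WT and 1120, 1060 and 1020 CPM in the double degron line, an interaction of 1.41 ± 0.13 (SE, adjusted p = 1.18e-09). CTSB (ENSG00000164733.23, chr8:11842524-11869533, minus strand), the cysteine protease cathepsin B, was at 1630, 1690 and 1540 CPM against 932, 984 and 988 CPM on day 8 after overlapping on day 2 (interaction 0.67 ± 0.12 (SE, adjusted p = 2.44e-05)). ANGPTL4, a lipase inhibitor, had an interaction of 0.99 ± 0.22 (SE, adjusted p = 0.000572), which was not called after the GC and length correction (0.55, adjusted p = 0.0599). MMP13, a collagenase, went from 1.26, 1.05 and 1.18 to 14.4, 12.5 and 11.5 CPM in the double degron line. In WT MMP13 had 0 CPM in 3 of the 6 libraries of days 2 and 8, and its interaction of 3.83 ± 1.19 (SE, adjusted p = 0.0105) turned to -0.62 (adjusted p = 0.659) without WT day 2 replicate 3. MMP1, another collagenase, went from 0.372 to 0.688 to 4.59 to 6.89 CPM and IGFBP3, which binds insulin-like growth factors, from 0.631 to 1.55 to 6.92 to 7.95 CPM in the double degron line, with at most 0.183 CPM of either in WT. Their interactions did not pass the test (MMP1 adjusted p = 0.268, IGFBP3 adjusted p = 0.103). ICAM1, an adhesion molecule, was at 3.26 to 4.53 CPM on day 2 and 15.5 to 21.8 CPM on day 8 against at most 0.495 CPM in WT, with an interaction of 0.35 ± 1.16 (SE, adjusted p = 0.859).

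Of 26 EGF family ligands, receptors and MAPK feedback genes tested (of 29 listed), 10 (38.5%) fell and 1 (3.85%) rose, beside 22.6% and 16.1% of all genes tested, with a median interaction of -0.4. EREG (ENSG00000124882.4, chr4:74365145-74388749, plus strand), epiregulin, a ligand of the EGF receptor, had the largest fall of all named genes. On day 2 it was at 644, 662 and 657 CPM in WT and 221, 228 and 252 CPM in the double degron line, and on day 8 at 608, 556 and 511 CPM and 16.4, 10.6 and 21.3 CPM. The lines were apart on both days and the gap deepened by an interaction of -3.63 ± 0.19 (SE, adjusted p = 4.62e-15). AREG (ENSG00000109321.11, chr4:74445136-74455005, plus strand), amphiregulin, the neighbouring ligand, was at 270, 296 and 288 CPM in WT and 142, 135 and 134 CPM in the double degron line on day 2, and at 245, 215 and 236 and 39.9, 27.8 and 47.5 CPM on day 8, likewise without overlap (interaction -1.54 ± 0.21 (SE, adjusted p = 9.51e-07)). SPRED1, an inhibitor of RAS-MAPK signalling, was at 99.9 to 107 CPM against 87 to 91.1 CPM on day 2 and at 40.4 to 48.4 CPM against 61.2 to 71.5 CPM on day 8 (interaction -0.8 ± 0.13 (SE, adjusted p = 6.68e-06), or -0.37 after the GC and length correction). The member that rose was SPRY1, another feedback inhibitor, at 0.246 to 1.85 CPM in the double degron line (interaction 1.95 ± 0.58 (SE, adjusted p = 0.00771)).

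Transcripts of dividing cells fell. Of 63 mitosis genes 52 (82.5%) fell and 0 rose, and of 54 DNA replication and E2F target genes 32 (59.3%) fell and 0 rose (the edgeR test, adjusted p). The median interactions were -0.85 and -0.55. The replication list was below WT throughout, with median log2 differences of -0.63, -0.37 and -1.19 at days 2, 6 and 8. The mitosis list did not move steadily, with medians of -0.47, 0.24 and -1.37 at the same days. In WT, 29 mitosis genes rose and 19 fell between day 2 and day 8, and in the double degron line 10 rose and 45 fell. ECT2 (ENSG00000114346.14, chr3:172750682-172821474, plus strand), the RhoA exchange factor of cytokinesis, was at 98.8, 103 and 94.3 CPM in WT and 67.6, 67.4 and 68.2 CPM in the double degron line on day 2, and at 91, 81.2 and 78.9 and 17.9, 18 and 24.2 CPM on day 8. The lines did not overlap on either day, and the interaction was -1.51 ± 0.13 (SE, adjusted p = 2.05e-10). RACGAP1, its partner at the spindle midzone, showed -1.27 ± 0.12 (SE, adjusted p = 1.94e-09), and CCNA2, the cyclin of S phase and G2, -1.32 ± 0.13 (SE, adjusted p = 2.48e-09). BIRC5 (ENSG00000089685.15, chr17:78214186-78225636, plus strand), survivin of the chromosomal passenger complex, overlapped between the lines on day 2 (308 to 351 CPM in WT, 294 to 315 CPM in the double degron line). Day 8 brought it to 220, 202 and 211 CPM in WT and 78.5, 63.1 and 90.5 CPM in the double degron line (interaction -1.34 ± 0.14 (SE, adjusted p = 7.34e-09)).

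MKI67 (ENSG00000148773.14, chr10:128096659-128126423, minus strand), the gene of the proliferation antigen Ki-67, behaved otherwise. It rose in both lines, from 22.5, 15.6 and 13.3 to 145, 159 and 128 CPM in WT and from 11.9, 10.1 and 10 to 73.4, 51.6 and 40.5 CPM in the double degron line. MKI67 was lower in the double degron line on both days without overlap. Its interaction of -0.71 ± 0.28 (SE, adjusted p = 0.0474) lost its call under 14 of 26 other settings, so that a change of the gap was not established for MKI67.

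Among replication genes, both subunits of ribonucleotide reductase fell. RRM1 (ENSG00000167325.15, chr11:4094707-4138932, plus strand) went from 106, 117 and 107 to 31.6, 27.9 and 49.2 CPM in the double degron line while WT went from 150 to 163 to 141 to 152 CPM (interaction -1.51 ± 0.18 (SE, adjusted p = 1.02e-07)). RRM2 (ENSG00000171848.16, chr2:10120698-10211725, plus strand) went from 392, 410 and 362 to 106, 93 and 127 CPM while WT went from 539 to 592 to 433 to 442 CPM (interaction -1.48 ± 0.15 (SE, adjusted p = 4.72e-09)). The E2F motif TTTNGCGC, searched on both strands, occurred in 17 of the 45 replication genes with a RefSeq promoter (37.8%) and in 2 of the 52 mitosis genes with one (3.85%), against 629 of 35116 promoters (1.79%). It was present in 9 of 26 replication genes that fell and in 8 of 19 that were not called. The 150 bases before MCM6 (chr2:135876444-135876593, minus strand), a subunit of the replicative helicase, are shown as the only stretch among the members that fell with the motif and without an annotated exon, in GRCh38.p14 with the matches in capitals.
MCM6: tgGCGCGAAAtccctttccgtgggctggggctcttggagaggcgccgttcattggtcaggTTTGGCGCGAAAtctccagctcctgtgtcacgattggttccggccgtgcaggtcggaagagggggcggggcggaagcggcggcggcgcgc

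Of 33 homologous recombination and Fanconi genes, 15 (45.5%) fell and 3 (9.09%) rose, beside 22.6% and 16.1% of all genes tested. After the GC and length correction 6 fell and 2 rose, and without UHRF1-AID/DNMT1-AID day 8 replicate 2 the count that fell was 7. FANCD2, the substrate that marks the activated Fanconi pathway, fell (-1.09 ± 0.14 (SE, adjusted p = 2.03e-07)), whereas EME1, a subunit of the MUS81 nuclease, rose (0.98 ± 0.14 (SE, adjusted p = 1.38e-06)). Replication-dependent histones ran against the replication genes, with 6 of 23 tested (26.1%, of 48 listed) rising and 0 falling by the edgeR test. H4C9 went from 32.2 to 39.1 to 62.3 to 84.9 CPM in the double degron line and from 24.1 to 25.5 to 17.8 to 21.5 CPM in WT (interaction 1.36 ± 0.32 (SE, adjusted p = 0.00105)). These transcripts mostly lack a polyA tail and the libraries were polyA-selected, so their levels reflect the tailed part.

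**Figure D4:**
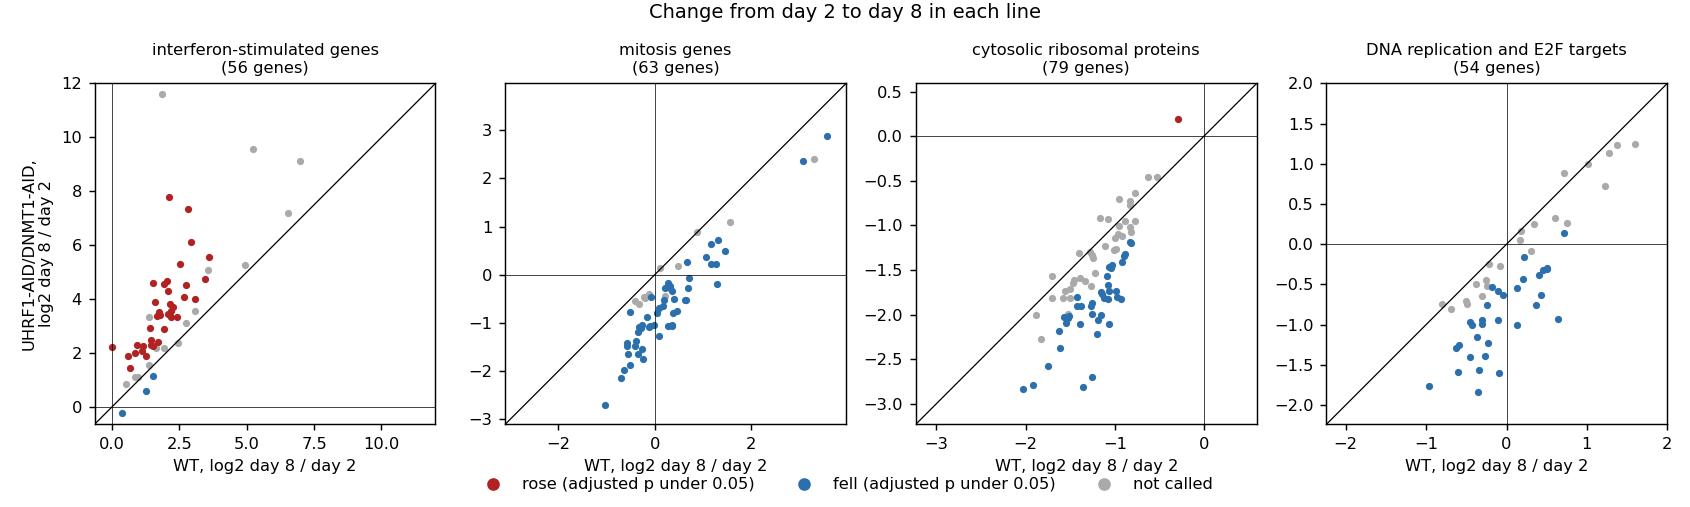
Log2 change from day 2 to day 8 within WT (x axis) and within UHRF1-AID/DNMT1-AID (y axis) for members of 4 gene lists, with the diagonal marking equal change. Interferon-stimulated genes lie mostly to the right of 0 and above the diagonal, mitosis and DNA replication genes mostly below it, and ribosomal protein genes to the left of 0, with 40 of 79 called below it.

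The cyclin-dependent kinase inhibitors and senescence markers fell in 11 of 20 (55%) and rose in 3 (15%). CDKN1A (ENSG00000124762.14, chr6:36676460-36687337, plus strand), which encodes p21, was at 297, 297 and 313 CPM in WT and 331, 366 and 337 CPM in the double degron line on day 2, and at 268, 284 and 274 and 235, 266 and 306 CPM on day 8. The day 8 libraries overlapped and the interaction was -0.22 ± 0.18 (SE, adjusted p = 0.354), or -0.48 after the GC and length correction (adjusted p = 0.0288). CDKN2A (ENSG00000147889.18, chr9:21967752-21995301, minus strand), the locus of p16 and ARF, fell in WT from 115, 121 and 117 to 92.2, 80.9 and 89.3 CPM and was at 100, 108 and 124 and 108, 113 and 135 CPM in the double degron line (interaction 0.53 ± 0.16 (SE, adjusted p = 0.00781)). The CDKN2A value was 0.3 after the GC and length correction (adjusted p = 0.151). CDKN1C (ENSG00000129757.15, chr11:2883213-2885775, minus strand), the imprinted inhibitor p57, rose from 60.6, 47.7 and 62.5 to 112, 223 and 121 CPM against 31.2 to 32.4 and 31.3 to 35.4 CPM in WT. It was above WT on both days (interaction 1.38 ± 0.23 (SE, adjusted p = 2.11e-05), or 0.91 after that correction).

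LMNB1 (ENSG00000113368.12, chr5:126776623-126837020, plus strand), lamin B1, whose loss is a marker of senescence, was at 89.6, 83.5 and 83.7 CPM in WT and 49.4, 45.3 and 45.9 CPM in the double degron line on day 2. On day 8 it was at 147, 157 and 144 and 45.2, 32.4 and 47.1 CPM, so that it rose in WT and not in the double degron line (interaction -0.98 ± 0.21 (SE, adjusted p = 0.000346)). LMNB2, lamin B2, followed the same course (-0.82 ± 0.17 (SE, adjusted p = 0.000229)), and CDKN1B, the inhibitor p27, fell in the double degron line from 54.1 to 66.6 to 26.6 to 35.1 CPM (-0.81 ± 0.15 (SE, adjusted p = 3.73e-05)).

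Genes activated by p53 showed no common direction, with 4 of 35 tested (11.4%) rising and 8 (22.9%) falling, near the shares of all genes tested, and a median interaction of -0.02. After the GC and length correction 3 rose and 5 fell, and the count that rose was 2 without WT day 2 replicate 1 or 3, WT day 8 replicate 1 or 3, or UHRF1-AID/DNMT1-AID day 8 replicate 2. Those that fell had mostly been above WT on day 2, 5 of the 8. ZMAT3 (ENSG00000172667.11, chr3:178960121-179072215, minus strand), an RNA-binding target of p53, was at 48.9, 51.8 and 50.7 CPM against 35.2, 30.4 and 31 CPM on day 2 and at 13, 11 and 13.9 CPM against 19.7, 21.9 and 17.5 CPM on day 8, inverting the order of the lines (interaction -1.28 ± 0.16 (SE, adjusted p = 9.75e-08)). TP53INP1 (ENSG00000164938.14, chr8:94925972-94949378, minus strand), a stress protein, came down from 69.1, 70.3 and 77.3 CPM to 33.4, 33 and 31.6 CPM, against 38.2 to 39.1 and 33.6 to 36.2 CPM in WT (interaction -0.99 ± 0.13 (SE, adjusted p = 2.88e-07), or -0.63 after the GC and length correction). MDM2, the ubiquitin ligase of p53, had an interaction of -0.75 ± 0.12 (SE, adjusted p = 1.13e-05) (-0.39 after the correction). ACER2, a ceramidase, fell (-1.99 ± 0.3 (SE, adjusted p = 2.31e-06)), and NINJ1, a membrane protein, rose (0.49 ± 0.1 (SE, adjusted p = 0.000259)).

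Of 79 cytosolic ribosomal protein genes 40 (50.6%) fell and 1 (1.27%) rose, with a median interaction of -0.41. Their median log2 difference against WT was 0.49, -0.29 and 0.11 at days 2, 6 and 8, while all 79 fell in WT between day 2 and day 8. Thus 77 members were higher than WT on day 2, and 31 were higher and 12 lower on day 8. RPL21 (ENSG00000122026.11, chr13:27251362-27256691, plus strand), a protein of the large subunit, was at 753, 882 and 777 CPM in WT and 898, 1030 and 1040 CPM in the double degron line on day 2. Its day 8 level was 333, 295 and 313 and 128, 117 and 179 CPM, so that it crossed from above to below WT without overlap (interaction -1.45 ± 0.15 (SE, adjusted p = 6.54e-09)). RPS3A, of the small subunit, crossed likewise (-1.43 ± 0.18 (SE, adjusted p = 1.48e-07)). RPL28 was the member that rose (0.49 ± 0.11 (SE, adjusted p = 0.000719)). Ribosomal protein genes have many processed pseudogenes, with which they may share reads.

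Of 50 genes of MYC and nucleolar ribosome biogenesis, 12 (24%) rose and 10 (20%) fell around a median interaction of -0.01, whose sign differed between scalings. Of all genes tested, 16.1% rose and 22.6% fell. MYC (ENSG00000136997.22, chr8:127735434-127742951, plus strand) itself was at 98.9, 88.8 and 91.1 CPM in WT and 54.3, 63.9 and 58.4 CPM in the double degron line on day 2, and at 91.3, 98.7 and 91.8 and 40.6, 33 and 38.1 CPM on day 8. It was below WT on both days and further on day 8 (interaction -0.68 ± 0.22 (SE, adjusted p = 0.014)). ODC1, the enzyme that starts polyamine synthesis and a MYC target, fell (-0.93 ± 0.14 (SE, adjusted p = 1.68e-06)), and TFAP4, another MYC target, had an interaction of -0.18 ± 0.18 (SE, adjusted p = 0.483). RRP9, a protein of the U3 particle, went from below to above WT (0.66 ± 0.12 (SE, adjusted p = 6.22e-05), or 0.29 after the GC and length correction).

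Of 13 transcripts of the mitochondrial genome, 8 (61.5%) rose and 0 fell by the edgeR test, with a median interaction of 1.18. The count that rose was 5 with the replicate block within each line and when 1 library was left out, for WT day 2 replicates 2 and 3, WT day 8 replicate 1, UHRF1-AID/DNMT1-AID day 2 replicates 1 and 2 and day 8 replicate 2, with medians of 1.01 to 1.17. MT-CO1 (ENSG00000198804.2, chrM:5904-7445, plus strand), a subunit of cytochrome c oxidase, was at 4020, 5650 and 6760 CPM in WT and 7680, 7040 and 8660 CPM in the double degron line on day 2, and at 5400, 6590 and 6550 and 25200, 28800 and 19400 CPM on day 8 (interaction 1.48 ± 0.38 (SE, adjusted p = 0.00281)). MT-ND6, the complex I subunit on the light strand, had the largest value of the list (2.23 ± 0.46 (SE, adjusted p = 0.00038)). On day 6 the median of the list against WT was 0.07. The rise is the one given above as a share of reads, and without these transcripts in the scaling 836 genes gained and 572 lost. Mitochondrial transcripts rose in the single degron lines too, with median interactions of 1.71 in UHRF1-AID and 0.85 in DNMT1-AID. Their day 8 shares of reads were 4.68 to 7.41% and 4.79 to 7.93%. No member was called between the double degron line and either single line.

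Of 32 targets of ATF4 and the integrated stress response tested (of 34 listed), 12 (37.5%) rose and 4 (12.5%) fell. After the GC and length correction 9 rose and 5 fell, and the median interaction went from 0.3 to 0.14. ATF4 (ENSG00000128272.18, chr22:39519695-39522683, plus strand), the transcription factor at the head of the list, went from below WT on day 2 (112, 124 and 126 CPM against 165, 163 and 156 CPM) to above it on day 8 (349, 289 and 269 CPM against 214, 218 and 217 CPM), without overlap on either day (interaction 0.9 ± 0.12 (SE, adjusted p = 5.86e-07)). ATF3 (ENSG00000162772.18, chr1:212565334-212620777, plus strand) took the same course, from 5.95 to 7.86 CPM against 9.63 to 10.5 CPM to 12 to 18.9 CPM against 5.67 to 6.75 CPM (interaction 1.87 ± 0.25 (SE, adjusted p = 3.73e-07)). HSPA5 (ENSG00000044574.9, chr9:125234853-125241382, minus strand), the chaperone BiP of the endoplasmic reticulum, overlapped between the lines on day 2 and was at 2360, 2450 and 2010 CPM against 1140, 1090 and 1070 CPM on day 8 (interaction 1.08 ± 0.13 (SE, adjusted p = 9.61e-08)). HSP90B1, the endoplasmic reticulum chaperone GRP94, which is not on that list, showed 1.13 ± 0.15 (SE, adjusted p = 2.5e-07). Members that fell included PSPH of serine synthesis (-1.07 ± 0.14 (SE, adjusted p = 4e-07)) and the amino acid transporter SLC38A2 (-1.06 ± 0.15 (SE, adjusted p = 1.66e-06), or -0.65 after the GC and length correction), neither of which was called against WT on day 2.

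Of 35 lysosomal genes tested 15 (42.9%) rose and 4 (11.4%) fell, the latter count being 1 to 2 without UHRF1-AID/DNMT1-AID day 8 replicate 1 or 2 or WT day 8 replicate 2, with a median interaction of 0.34. CTSA (ENSG00000064601.21, chr20:45890144-45898949, plus strand), cathepsin A, which protects lysosomal glycosidases, was at 122 to 129 and 133 to 148 CPM on day 2 and at 430, 457 and 354 against 211, 235 and 229 CPM on day 8 (interaction 1.05 ± 0.12 (SE, adjusted p = 2.17e-08)). CTSD, the aspartic protease cathepsin D, had an interaction of 0.71 ± 0.1 (SE, adjusted p = 1.84e-06), or 0.34 after the GC and length correction. Of 25 cholesterol synthesis genes 12 (48%) fell and 2 (8%) rose, or 9 and 2 after the GC and length correction. CYP51A1 (ENSG00000001630.18, chr7:92084987-92134803, minus strand), the lanosterol demethylase, was at 165, 176 and 171 CPM in WT and 158, 167 and 172 CPM in the double degron line on day 2, and at 117, 114 and 109 and 67.9, 68.7 and 85.8 CPM on day 8 (interaction -0.57 ± 0.11 (SE, adjusted p = 0.000123), or -0.28 after the GC and length correction). The libraries of the lines overlapped on day 2 and not on day 8, and CYP51A1 overlaps AKAP9.

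Several other lists had shares nearer to those of all genes tested (16.1% rose, 22.6% fell). Of 30 hypoxia and glycolysis genes, 10 (33.3%) fell, or 6 without UHRF1-AID/DNMT1-AID day 8 replicate 2, and 3 (10%) rose. PGK1, phosphoglycerate kinase, fell in both lines and further in the double degron line (-0.8 ± 0.11 (SE, adjusted p = 1.09e-06)), and P4HA2, a collagen prolyl hydroxylase, rose (0.95 ± 0.11 (SE, adjusted p = 7.59e-08)). Of 21 metallothionein and oxidative stress genes tested, 6 (28.6%) fell and 3 (14.3%) rose, with NQO1, a quinone reductase, at -0.72 ± 0.13 (SE, adjusted p = 5.36e-05) and the metallothionein MT1F at 0.91 ± 0.22 (SE, adjusted p = 0.000966). Of 10 aryl hydrocarbon receptor targets, 3 (30%) fell and 2 (20%) rose, and CYP1A1, its best-known target, was at 9.29 to 11 CPM on day 2 and 35.3 to 46.9 CPM on day 8 in the double degron line against 5.16 to 6.05 and 5.45 to 6.97 CPM in WT (interaction 1.82 ± 0.44 (SE, adjusted p = 0.00159)). Of 35 apoptosis regulators tested, 8 (22.9%) fell and 4 (11.4%) rose, or 8 and 2 without WT day 8 replicate 3. BCL2L11, the BH3-only killer BIM, fell (-1.24 ± 0.15 (SE, adjusted p = 4.5e-08)) and CASP4, the caspase that senses cytosolic lipopolysaccharide, rose (1.19 ± 0.18 (SE, adjusted p = 2.11e-06)).

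Among germline genes, which DNA methylation is known to silence in somatic cells, most that passed the count filter were above WT by day 2 already. Of 54 germline and cancer-testis genes tested (of 76 listed), 43 were higher than WT on day 2 and 51 on day 8, while 7 (13%) rose and 1 (1.85%) fell between the days (13 and 1 with DESeq2). Of all genes tested, 16.3% and 35.7% were higher than WT on those days, and 16.1% rose and 22.6% fell. A gene near 0 in WT passed the count filter only through degron libraries, so the counts above WT are partly set by that filter. As 38 of the germline genes had a group with at most 3 reads, their folds against WT are not measured. Over the others the median interaction was 0.72. CSAG1 (ENSG00000198930.13, chrX:152727484-152733735, minus strand), a cancer-testis gene, was at 5.68, 7.44 and 7.44 CPM against 1.25, 0.887 and 1.57 CPM on day 2 and at 16.9, 18.4 and 18.3 CPM against 0.732, 0.45 and 0.742 CPM on day 8 (interaction 2.31 ± 0.44 (SE, adjusted p = 7.23e-05)). MAGEA12 (ENSG00000213401.10, chrX:152733757-152737669, plus strand), of a family with near-identical copies, was at 22, 20.8 and 27 CPM against 0.468, 0.499 and 0.162 CPM on day 2 and at 28.4, 36.1 and 36.8 CPM against 0.137, 0.045 and 0.101 CPM on day 8 (interaction 2.47 ± 0.75 (SE, adjusted p = 0.00863)). Most of the MAGEA12 gap was present on day 2, and WT was near 0 on both days. Of the 7 germline genes that rose relative to WT, 5 fell in WT and 4 rose in the double degron line. The member that fell was MAGEA2 (interaction -0.65, adjusted p = 4.87e-05 by the edgeR test).

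Of 35 genes tested (of 50 listed) that are known to be silenced by methylation in colon cancers, 5 (14.3%) rose and 1 (2.86%) fell. After the GC and length correction 3 rose and 2 fell, and with DESeq2 9 rose and 1 fell. Members were not all silent in WT here, and 4 of the 5 that rose also rose in WT. Among all genes tested 16.1% rose and 22.6% fell, to be set beside this list and the imprinted and HOX lists. HIC1, a transcriptional repressor, rose in both lines, from 4.71 to 7.13 to 17.3 to 20.1 CPM in WT and from 4.53 to 5.79 to 41 to 47.7 CPM in the double degron line (interaction 1.38 ± 0.26 (SE, adjusted p = 6.04e-05)). Of 22 imprinted genes tested (of 30 listed), 8 (36.4%) rose and 3 (13.6%) fell, or 6 and 0 after the GC and length correction. GNAS, the stimulatory G protein locus, was among those that rose (0.85 ± 0.15 (SE, adjusted p = 1.76e-05)). Of 37 HOX genes tested, 4 (10.8%) fell and 2 (5.41%) rose, or 2 and 1 without WT day 2 replicate 2, and HOXA9 fell from 83.5 to 101 to 45.7 to 50 CPM in the double degron line against 125 to 127 and 128 to 131 CPM in WT (-0.97 ± 0.13 (SE, adjusted p = 5.65e-07)).

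Of 23 genes of the DNA methylation machinery tested (of 24 listed), 4 (17.4%) rose and 5 (21.7%) fell, UHRF1 among the latter, shares close to the 16.1% and 22.6% of all genes tested. After the GC and length correction 5 rose and 2 fell. GADD45B (ENSG00000099860.9, chr19:2476122-2478259, plus strand), a stress gene linked to active demethylation, overlapped between the lines on day 2 (8.22, 8.54 and 8.15 CPM in WT, 8.32, 7.44 and 5.89 CPM in the double degron line). Day 8 brought it to 9.66, 8.23 and 8.57 CPM in WT and 27.1, 32.8 and 32.3 CPM in the double degron line, an interaction of 2 ± 0.18 (SE, adjusted p = 5.31e-10). HELLS (ENSG00000119969.16, chr10:94545329-94613905, plus strand), the chromatin remodeller needed for methylation of repeats, rose in WT (31.5 to 36.3 to 46.6 to 48.1 CPM) and not in the double degron line (21.5 to 25.8 to 13.6 to 18 CPM), with an interaction of -1.01 ± 0.19 (SE, adjusted p = 4.84e-05). Of 25 heterochromatin and retroelement silencers, 11 (44%) fell and 1 (4%) rose, or 8 and 5 after the GC and length correction, with a median interaction of -0.15, or -0.05 after it. CBX5 (ENSG00000094916.16, chr12:54230942-54280133, minus strand), the HP1 alpha protein that binds methylated histone H3, overlapped between the lines on day 2 and was at 39.3, 36.3 and 50 CPM against 115, 129 and 111 CPM on day 8 (interaction -1.43 ± 0.23 (SE, adjusted p = 1.09e-05)). SUZ12, of Polycomb complex 2, and MORC3, a silencer of retroelements, had interactions of -0.71 ± 0.12 (SE, adjusted p = 8.04e-06) and -0.74 ± 0.13 (SE, adjusted p = 2.7e-05), or -0.33 each after the GC and length correction.

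Of 24 Wnt targets and feedback genes tested (of 32 listed), 5 (20.8%) rose and 2 (8.33%) fell, beside 16.1% and 22.6% of all genes tested. NOTUM (ENSG00000185269.12, chr17:81952507-81961840, minus strand), a secreted enzyme that inactivates Wnt, was at 28.9, 28.1 and 31.4 CPM in WT and 107, 87.7 and 123 CPM in the double degron line on day 2, and at 38.3, 34.8 and 39.1 and 1230, 1680 and 1240 CPM on day 8. It was above WT on both days and the gap widened by an interaction of 3.36 ± 0.39 (SE, adjusted p = 2e-07). BAMBI (ENSG00000095739.11, chr10:28677510-28682932, plus strand), a decoy receptor of TGF-beta signalling, went from 15.2, 8 and 14.2 to 38, 71.3 and 50.2 CPM in the double degron line while WT went from 4.21 to 6.09 to 2.77 to 3.29 CPM (interaction 2.84 ± 0.48 (SE, adjusted p = 3.61e-05)). Of 22 intestinal epithelial genes tested (of 44 listed), 3 (13.6%) rose and 1 (4.55%) fell, or 5 and 1 with DESeq2. Both edgeR shares were below the 16.1% and 22.6% of all genes tested. The member that fell was VIL1 (interaction -0.55, adjusted p = 0.0317 by the edgeR test), which lost its call under 8 of 26 other settings. CDX2 (ENSG00000165556.10, chr13:27960918-27969315, minus strand), the transcription factor of intestinal identity, was at 33.4, 32.8 and 34.7 CPM against 19.8, 17.9 and 18.3 CPM on day 2 and at 95.4, 153 and 85.8 CPM against 23.7, 25 and 23.6 CPM on day 8 (interaction 1.36 ± 0.21 (SE, adjusted p = 5.25e-06)). KRT18, a keratin of simple epithelia, rose too (1.05 ± 0.15 (SE, adjusted p = 1.31e-06)).

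Of 38 mesenchymal and matrix genes tested (of 45 listed), 11 (28.9%) rose and 2 (5.26%) fell, beside 16.1% and 22.6% of all genes tested, or 7 and 2 after the GC and length correction. CCN2, a matrix protein induced by YAP and TGF-beta, went from 2.23 to 3.14 to 9.73 to 12.3 CPM in the double degron line and from 2.27 to 3.78 to 2.36 to 3.69 CPM in WT (interaction 1.92 ± 0.31 (SE, adjusted p = 7.03e-06)). ITGA5, the fibronectin receptor subunit, had an interaction of 0.79 ± 0.13 (SE, adjusted p = 1.17e-05). Among the largest gains were APOBEC3G (ENSG00000239713.9, chr22:39077067-39087743, plus strand), a cytidine deaminase that restricts retroviruses, KRT17 (ENSG00000128422.18, chr17:41619442-41624842, minus strand), a stress keratin, and CLIP3 (ENSG00000105270.15, chr19:36014660-36033343, minus strand), a microtubule-associated protein. APOBEC3G went from 1.66, 2.89 and 3.85 to 38.4, 40.6 and 24.4 CPM in the double degron line with at most 0.624 CPM in WT (interaction 5.38 ± 0.83 (SE, adjusted p = 4.98e-06)), and it belongs to a family of similar genes. KRT17 went from 2.64, 3.01 and 3.47 to 24.1, 31.8 and 30 CPM with at most 0.432 CPM in WT (4.24 ± 0.76 (SE, adjusted p = 4.15e-05)). CLIP3 overlapped between the lines on day 2 (0.594 to 0.78 CPM in WT, 0.31 to 0.984 CPM in the double degron line) and was at 22.1, 23.9 and 12.3 CPM against 0.641, 0.63 and 1.18 CPM on day 8 (4.36 ± 0.55 (SE, adjusted p = 1.55e-07)).

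The double degron line was then set against the single degron lines over the same days, with WT cancelling from the difference. Relative to UHRF1-AID, 245 genes (1.59%) gained and 529 (3.43%) lost more than 2-fold, and relative to DNMT1-AID, 168 (1.09%) gained and 120 (0.778%) lost. After the GC and length correction the counts against UHRF1-AID were 334 gained and 401 lost. At any fold, 1214 genes rose and 2732 fell relative to UHRF1-AID, or 2093 and 1857 after that correction. At any fold, which direction held more genes thus depended on the correction, while beyond 2-fold more genes lost than gained with and without it. Against WT, UHRF1-AID on its own gained 689 genes (4.47%) and lost 41 (0.266%) between day 2 and day 8, and DNMT1-AID gained 248 (1.61%) and lost 76 (0.493%). All these comparisons share libraries with the interaction. The median interaction of the 814 gained genes was 1 for the UHRF1-AID line and 0.84 for the DNMT1-AID line, and the 602 lost genes medians of -0.43 and -0.65, beside 1.55 and -1.22 in the double degron line. The choice of these genes on the double degron libraries favours the latter.

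Several genes fell further in the double degron line than in both single lines. HSPA8 differed from UHRF1-AID by -1.48 ± 0.13 (SE, adjusted p = 9.14e-09) and from DNMT1-AID by -0.83 ± 0.13 (SE, adjusted p = 0.000192) on the log2 scale, its own interaction in UHRF1-AID being -0.22 (adjusted p = 0.27) and in DNMT1-AID -0.88 (adjusted p = 3.99e-05). EREG fell in all 3 lines (interactions of -2.42 for UHRF1-AID, -2.01 for DNMT1-AID, -3.63 for the double degron line). The last differed from UHRF1-AID by -1.2 ± 0.19 (SE, adjusted p = 1.96e-05) and from DNMT1-AID by -1.62 ± 0.19 (SE, adjusted p = 4.69e-06). APOM had interactions of -0.18 for UHRF1-AID and -1.18 for DNMT1-AID, beside -2.62 in the double degron line, which differed from them by -2.44 ± 0.31 (SE, adjusted p = 1.76e-06) and -1.44 ± 0.31 (SE, adjusted p = 0.00281).

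Among genes that rose, GADD45B had interactions of 0.59 for UHRF1-AID and 1.05 for DNMT1-AID, while the double degron line exceeded UHRF1-AID by 1.41 ± 0.18 (SE, adjusted p = 9.09e-07) and DNMT1-AID by 0.95 ± 0.18 (SE, adjusted p = 0.00113). NFKB2 had interactions of 0.98 and 0.53, and the double degron line exceeded UHRF1-AID by 0.76 ± 0.15 (SE, adjusted p = 0.000208) and DNMT1-AID by 1.22 ± 0.15 (SE, adjusted p = 4.69e-06). IL17RC (ENSG00000163702.21, chr3:9917074-9933630, plus strand), a receptor chain for interleukin 17, had interactions of -0.05 (adjusted p = 0.858) and 0.13 (adjusted p = 0.526) in the single degron lines and 0.95 ± 0.12 (SE, adjusted p = 1.83e-07) in the double degron line. It exceeded both, by 0.99 ± 0.12 (SE, adjusted p = 6.72e-07) and 0.82 ± 0.12 (SE, adjusted p = 0.000122). FAM50A (ENSG00000071859.15, chrX:154444141-154450654, plus strand), a splicing-associated nuclear protein, had -0.03 for UHRF1-AID and 0.7 for DNMT1-AID, while the double degron line, at 96.7, 91.6 and 102 CPM on day 8 against 39, 38.7 and 41.2 CPM in WT, exceeded UHRF1-AID by 1.29 ± 0.13 (SE, adjusted p = 2.71e-08) and DNMT1-AID by 0.57 ± 0.13 (SE, adjusted p = 0.00414).

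Interferon and antigen presentation genes differed among themselves in this respect. ISG15 had interactions of 0.99 (adjusted p = 0.0305) for UHRF1-AID and 0.28 (adjusted p = 0.608) for DNMT1-AID. The double degron line differed from them by 0.81 ± 0.32 (SE, adjusted p = 0.0624) and 1.52 ± 0.32 (SE, adjusted p = 0.00292). IFITM1 had 2.89 and 2.94 in the single lines, and the double degron line differed by 0.19 ± 0.28 (SE, adjusted p = 0.66) and 0.15 ± 0.28 (SE, adjusted p = 0.791). HLA-E had 0.57 and 0.61, with differences of 0.63 ± 0.15 (SE, adjusted p = 0.00274) and 0.58 ± 0.15 (SE, adjusted p = 0.0117). ECT2 had interactions of -0.69 and -0.96, from which the double degron line differed by -0.83 ± 0.13 (SE, adjusted p = 1.92e-05) and -0.56 ± 0.13 (SE, adjusted p = 0.00468).

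**Figure D5:**
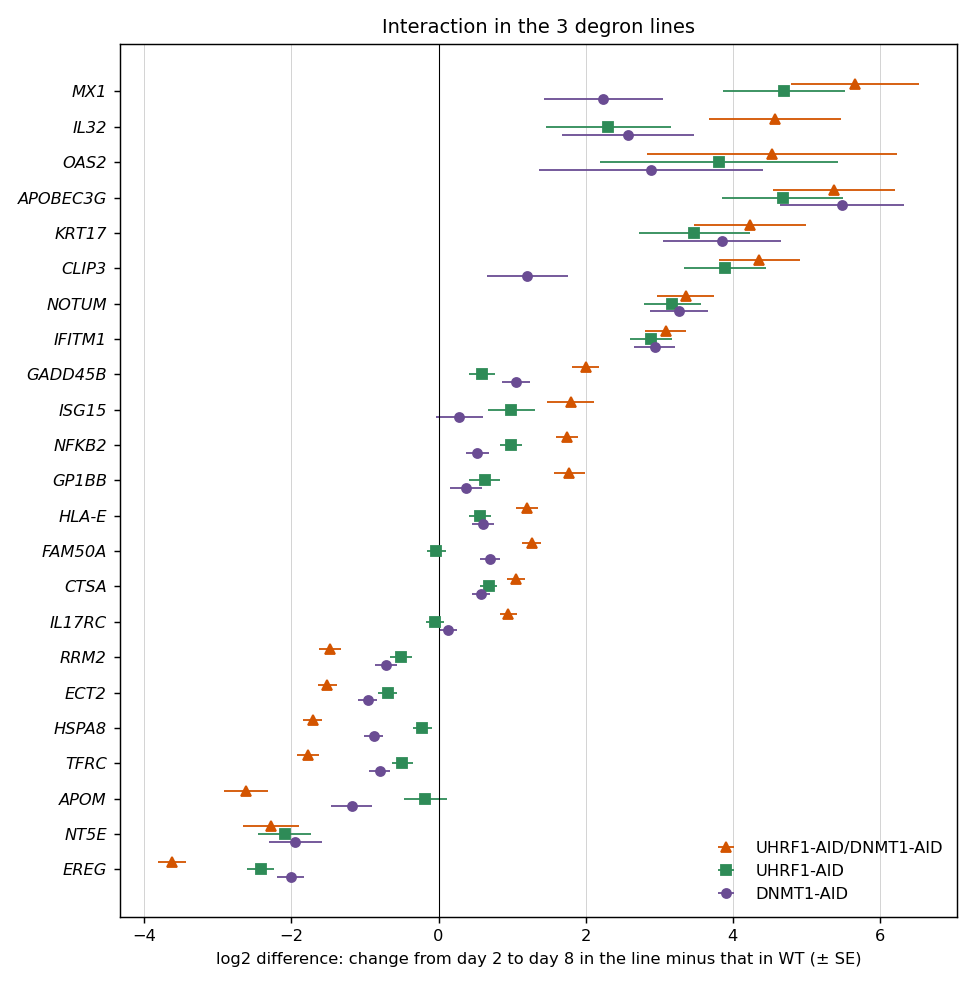
Interaction from day 2 to day 8 against WT (log2, bars show the standard error) of 23 genes in the 3 degron lines (UHRF1-AID, DNMT1-AID and double). The double degron value is the most extreme for NFKB2, GADD45B, EREG and HSPA8, while the 3 values of IFITM1 lie close together.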

How the data were processed

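PolyA RNA of HCT116 cells was sequenced in 36 libraries (4 lines, days 2, 6 and 8, 3 libraries per group), of which 12 form the comparison. The authors trimmed paired-end reads, aligned them with STAR to GRCh38 and deposited featureCounts counts per gene for each library, with the annotation, strand setting and treatment of multi-mapping reads not given in the sources used here. Of 60648 gene IDs, 60462 matched GENCODE v44, and 15415 of 19942 protein-coding genes passed filterByExpr (minimum count 10). The counts were scaled by TMM and fitted with 1 mean per group over all 36 libraries (24 residual degrees of freedom, common dispersion 0.0115) by edgeR's robust quasi-likelihood test (edgeR 4.0.16, limma 3.58.1, R 4.3.3), with Benjamini-Hochberg adjustment over all genes tested. SE was the log2 difference divided by the square root of F. Gained and lost mean an adjusted p under 0.05 and a log2 difference beyond 1. Rose and fell, in lists, mean an adjusted p under 0.05 at any fold. The fit was tested on counts simulated with its own dispersions, which cannot show that it suits the real libraries.

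Members, lists and tests were chosen with earlier results of these data known. The genes named were UHRF1, DNMT1 and set genes of senescence and interferon, the 10 highest and 10 lowest interactions (mean CPM at least 5, libraries separated), 3 per class of calls against WT, up to 3 members in the main and 2 in the other direction of each list, and 3 per direction against each single degron line, less some genes that are not reported here. Libraries with the same replicate number did not deviate together (r between -0.106 and 0.206), so no block was used. Promoter sequences are RefSeq's. As 562 of 814 gained and 426 of 602 lost genes had one, under 80%, motif shares over those sets are void and are not given. Counting error is the only error that depth covers.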

Additional observations from a re-analysis of the deposited data

Results flagged for a closer look

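The double degron line differed from the single degron lines over the same days. Beyond UHRF1-AID, 245 genes gained and 529 lost more than 2-fold, and beyond DNMT1-AID, 168 gained and 120 lost (edgeR's quasi-likelihood test of the difference, adjusted p). With the GC and length correction, 334 gained and 401 lost beyond UHRF1-AID. At any fold, 1214 rose and 2732 fell beyond UHRF1-AID, or 2093 and 1857 with that correction. Among the genes of smallest p beyond UHRF1-AID were GADD45B (log2 difference 1.41), FAM50A (1.29) and IL17RC (0.99) upward, and HSPA8 (-1.48) and the read-through locus ENSG00000255054 (-2.42), which spans SELENON and MTFR1L, downward. Beyond DNMT1-AID they were GP1BB (1.41), NFKB2 (1.22) and IL17RC (0.82) upward, and EREG (-1.62) and the read-through loci ENSG00000286239 (-1.47) and ENSG00000285635 (-1.19) downward. GP1BB overlaps SEPTIN5 and IL17RC overlaps ENSG00000288550 on the same strand.

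Genes outside the protein-coding set, fitted in a table of all gene types, also moved. Of 4594 lncRNA genes tested, 254 (5.53%) gained and 513 (11.2%) lost more than 2-fold relative to WT. Of 824 processed pseudogenes, 107 (13%) lost and 16 (1.94%) gained. Reads of pseudogenes may be shared with their parent genes, which include ribosomal protein genes.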

How the results depend on the processing

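Over 26 other settings, 7 of the values compared changed sign, 217 lost and 9 gained a call, and 4803 kept their side of the threshold. Tested against a 1.5-fold change, 478 genes gained, 49 gained and 277 lost beyond UHRF1-AID, and 4 gained and 9 lost beyond DNMT1-AID. With all gene types, 1313 genes lost, 405 gained and 1154 lost beyond UHRF1-AID, and 324 lost beyond DNMT1-AID. Fitted on the groups of each comparison alone, 107 gained beyond DNMT1-AID. Leaving out 1 library at a time gave 703 to 883 genes gained and 524 to 690 lost, 192 to 325 gained and 445 to 718 lost beyond UHRF1-AID, and 115 to 229 gained and 86 to 154 lost beyond DNMT1-AID. The sign changed for CGAS (-0.11 without UHRF1-AID/DNMT1-AID day 2 replicate 1, -0.11 without day 8 replicate 3, -0.45 and -0.32 without WT day 8 replicates 2 and 3, up to 1.65 without WT day 8 replicate 1), CT45A7 (-1.61 without WT day 2 replicate 2, up to 9.55), ICAM1 (-0.01 without WT day 2 replicate 1, up to 0.77) and MMP13 (-0.62 without WT day 2 replicate 3, up to 4.81), all with groups near 0 reads. Other gene totals stayed within 1.5 times: 904 gained and 502 lost with RLE size factors, 734 and 716 with library sizes alone, 1049 and 517 with DESeq2 1.42.0, and, added after seeing the data, 836 and 572 without mitochondrial transcripts and 749 and 596 for genes above 3 reads in each group. Replicate numbers did not pair the libraries, and not every library correlated best with its own number. With the replicate number as a block, 807 to 840 genes gained and 600 to 614 lost, 231 to 277 gained and 526 to 567 lost beyond UHRF1-AID, and 149 to 202 gained and 112 to 157 lost beyond DNMT1-AID. Depth limits genes under 1 CPM, where a group can hold 3 reads or fewer. The causes were not tested.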

Other observations

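Several genes of the extremes rested on near-empty groups or on loci that share exons. In UHRF1-AID/DNMT1-AID, FBLN2, a matrix fibulin, went from 2.58, 1.97 and 2.11 CPM on day 2 to 28.8, 50 and 30.5 CPM on day 8, ALPG, a germ cell alkaline phosphatase, from 1.2, 2.34 and 2.17 to 39.9, 62.8 and 48.8 CPM, and MAP1LC3A, an autophagosome protein, from 4.24, 3.01 and 5.21 to 25.8, 32.9 and 38.4 CPM. WT stayed at or below 0.277 CPM for these genes on both days. The interaction of FBLN2 was 4.41 ± 1.39 (SE, adjusted p = 0.0119) and had an adjusted p of 0.157 without WT day 2 replicate 1. That of ALPG was 4.93 ± 1.8 (SE, adjusted p = 0.0315), with an adjusted p of 0.36 without WT day 2 replicate 2 and 0.0533 without WT day 8 replicate 3. MAP1LC3A had at most 3 reads in WT on day 8, so its gap has no measured size. CT45A7, of a cancer-testis family of near-identical copies, reached 25.9, 23.7 and 26.8 CPM, with reads in 1 of 3 WT libraries on each day.

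Several of the genes lost were read-through loci. ENSG00000285635, which spans CLDND1, GPR15 and CPOX, stood at 302, 285 and 276 CPM on day 2 and 51.2, 44.2 and 50.1 CPM on day 8 in the double degron line, against 295 to 321 and 189 to 195 CPM in WT (interaction -1.89 ± 0.14 (SE, adjusted p = 3.2e-11)). ZFP91-CNTF went from 31.6, 28.4 and 21 to 6.01, 5.75 and 4.39 CPM (interaction -2.12 ± 0.21 (SE, adjusted p = 3.45e-09)) and ARHGAP19-SLIT1 from 9.06, 8 and 8.68 to 0.561, 0.966 and 1.37 CPM (interaction -2.55 ± 0.27 (SE, adjusted p = 7.09e-09)). The reads of such loci cannot be told apart from those of the genes within them by these counts.

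GCHFR, the feedback regulator of tetrahydrobiopterin synthesis, was far above WT from the first time point and came partly down. It stood at 127, 102 and 141 CPM against 5.2, 4.33 and 3.56 CPM on day 2 and at 53.1, 54.6 and 89.4 CPM against 6.09, 6.03 and 5.33 CPM on day 8. Its interaction of -1.31 ± 0.51 (SE, adjusted p = 0.044) lost its call under 15 of 26 other settings, 10 of them the omission of 1 library.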
